A study of Mus musculus with 40 samples.

Results

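The H3K27me3 peak lists of 5 OPC cultures that carry H3.3 K27M were compared by brain region of origin, with 3 telencephalon-derived cultures (59, 60 and 61) on one side and 2 brainstem-derived cultures (59 and 61) on the other. They were taken by their labels for genotype, tissue, culture and antibody, and are 5 of the 20 samples with a peak list among 40 samples in the series, the rest being input libraries. The question was which autosomal H3K27me3 domains that remain in K27M cells differ between the regions and which are common to them. Oligodendrocyte precursor cells (OPCs) were isolated from the brains of *hGFAP-Cre*;K27M mouse litters on an FVB background at P5 to P7, in which Cre removes a stop cassette so that the K27M mutant histone is made from the endogenous *H3-3a* locus. The human GFAP promoter drives Cre in neural stem and progenitor cells and their progeny, so the mutation is carried from before the oligodendrocyte lineage forms and by other lineages too. Telencephalon here means the pooled dorsal telencephalon with cortex, corpus callosum and hippocampus, which the sample labels shorten to cortex. Tissue was pooled by region and genotype, PDGFRa-positive cells were immunopanned after depletion of endothelial cells and microglia, and the cells were grown in proliferation medium without differentiation. The control cultures used for comparison below carry the Control label, come from the same litters and regions, and received the same medium. Each culture is thus a pool of animals and not a single mouse, and p-values measure only the spread between these cultures, which may be technical.

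H3K27me3 is deposited by the Polycomb repressive complex PRC2 and marks silent developmental genes, most of all CpG-rich promoters of transcription factors that belong to other lineages or other positions along the body axis. The K27M histone inhibits PRC2 and leaves the mark mainly at the sites where PRC2 binds most strongly. Along the developing neural tube, *Hox*, *Irx*, *Pax* and forebrain factors such as *Emx2* and *Otx1* form a positional code, and glia keep parts of the pattern of the region they come from.

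For orientation, the sequences just upstream of 6 listed genes are given, 3 whose promoter carried a K27M H3K27me3 peak in every telencephalon culture and no brainstem culture, and 3 marked in all 5 cultures, taken in the order of their lowest fold enrichment among listed genes whose window overlaps no exon. That condition left out *Hand2* from the common genes and the single listed brainstem-only gene, *Nr2e1*. Each is the 200 bases before the most upstream annotated transcript start, read 5′ to 3′ on the gene's strand from GRCm38 (the assembly also called mm10), with CG dinucleotides in capitals because Polycomb domains are centred on CpG-rich sequence. The regions are chr1:78197135-78197334 on the minus strand for *Pax3*, chr8:92357425-92357624 on the plus strand for *Irx5*, chr13:72628620-72628819 on the plus strand for *Irx2*, chr3:99240181-99240380 on the plus strand for *Tbx15*, chr13:116309690-116309889 on the minus strand for *Isl1* and chr9:24774304-24774503 on the minus strand for *Tbx20*.
Pax3: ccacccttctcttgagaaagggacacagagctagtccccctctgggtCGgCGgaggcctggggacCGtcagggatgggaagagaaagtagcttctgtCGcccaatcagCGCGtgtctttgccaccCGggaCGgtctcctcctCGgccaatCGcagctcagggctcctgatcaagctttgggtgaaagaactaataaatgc
Irx5: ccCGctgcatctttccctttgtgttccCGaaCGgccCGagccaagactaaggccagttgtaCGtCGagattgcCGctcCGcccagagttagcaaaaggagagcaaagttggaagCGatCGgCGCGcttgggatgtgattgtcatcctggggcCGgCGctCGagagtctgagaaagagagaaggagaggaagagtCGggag
Irx2: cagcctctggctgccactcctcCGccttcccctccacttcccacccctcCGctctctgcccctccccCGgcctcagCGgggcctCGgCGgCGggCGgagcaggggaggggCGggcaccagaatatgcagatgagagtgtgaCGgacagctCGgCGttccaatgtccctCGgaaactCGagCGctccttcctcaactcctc
Tbx15: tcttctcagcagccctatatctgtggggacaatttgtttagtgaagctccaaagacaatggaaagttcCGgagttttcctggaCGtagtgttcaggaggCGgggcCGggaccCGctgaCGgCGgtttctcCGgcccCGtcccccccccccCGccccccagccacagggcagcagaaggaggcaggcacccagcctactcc
Isl1: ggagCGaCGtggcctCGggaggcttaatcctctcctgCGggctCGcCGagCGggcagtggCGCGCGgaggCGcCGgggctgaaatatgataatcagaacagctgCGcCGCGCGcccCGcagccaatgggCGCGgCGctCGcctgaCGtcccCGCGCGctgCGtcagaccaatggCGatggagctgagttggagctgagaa
Tbx20: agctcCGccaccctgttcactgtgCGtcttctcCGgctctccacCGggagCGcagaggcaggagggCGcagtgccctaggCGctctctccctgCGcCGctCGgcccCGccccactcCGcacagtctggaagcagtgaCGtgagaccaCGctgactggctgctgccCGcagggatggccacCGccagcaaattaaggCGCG

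These windows hold 10 CG dinucleotides at *Pax3*, 16 at *Irx5*, 15 at *Irx2*, 10 at *Tbx15*, 27 at *Isl1* and 18 at *Tbx20*. The median over all 20807 autosomal protein-coding genes was 7. Counts as high as those were found in 42.8% of coding promoters for *Pax3* and *Tbx15*, 24.2% for *Irx5*, 27.1% for *Irx2*, 5.13% for *Isl1* and 18.8% for *Tbx20*. By class, the median was 13 in the 16 coding genes marked in the telencephalon only, 10 in the 73 marked in the brainstem only, 11 in the 1301 marked in all cultures and 7 in the 17969 without a peak. Each of the 3 marked classes thus had a higher median than promoters without the mark.

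The peak lists record where H3K27me3 passed the caller's threshold over each library's own input. The autosomes held 3941, 7639 and 6427 peaks in telencephalon 59, 60 and 61, and 6692 and 7770 in brainstem 59 and 61. These peaks covered 12.5, 23.0 and 19.3 Mb in the telencephalon and 21.2 and 23.1 Mb in the brainstem. Telencephalon 59 stood apart with the fewest peaks and the smallest length, and the groups overlap. The means were 18.3 ± 5.34 Mb (SD, n = 3) and 22.1 ± 1.33 Mb (SD, n = 2), a log2 difference of −0.32 with an exact two-sided permutation p of 0.4, in a design whose smallest possible p is 0.2. Without telencephalon 59 the difference was −0.068, and with chromosomes X and Y it was −0.18. The lists hold no read counts, so the depth behind a peak is unknown from them. Telencephalon 59 was sequenced more deeply than the rest by the submitters' library list, so its small number of peaks does not go with fewer reads. Its highest fold enrichment over input was 11.7, against 30.9 to 38.7 in the other 4 libraries, and the median of the highest folds at domains common to all 5 cultures was 2.87 in it against 5.28 to 6.22. Fold values of telencephalon 59 are therefore given beside the others and results are repeated without it.

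As a check of the cells, H3K4me3, a mark of active and poised promoters, was read at marker genes in the matching K27M libraries. Promoters of 14 of 14 OPC markers, among them *Olig1*, *Olig2*, *Sox10*, *Pdgfra* and *Cspg4*, carried H3K4me3 in all 5 cultures. None of the 14 had H3K27me3 in every culture, 13 had it in no culture, and *Nkx2-2* had a peak in telencephalon 60 and 61 and brainstem 61. Microglial promoters carried H3K4me3 at 1 of 8 genes in each library (*P2ry12*, with *Cx3cr1* and *Csf1r* among the 7 without a peak), endothelial promoters at 3, 3 and 4 of 8 in the telencephalon and 4 and 3 in the brainstem, mature oligodendrocyte promoters at 4 of 9 throughout, astrocyte promoters at 8, 8 and 10 of 10 against 9 and 6, and neuronal promoters at 9 of 10 throughout. A promoter mark does not measure expression, and in bulk cultures fewer cells with a mark and less mark per cell cannot be told apart.

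H3K27me3 peaks of the 5 libraries were most alike within the brainstem. The Jaccard index, the shared covered length over the joint covered length, was 0.713 between the brainstem cultures and 0.525, 0.601 and 0.687 within the telencephalon. Between regions it ranged from 0.472 to 0.633 over 6 pairs. The within-region mean of 0.632 and the between-region mean of 0.562 differed by 0.0699, with an exact one-sided permutation p of 0.2, where 0.1 is the smallest possible. The difference was 0.0388 without brainstem 59, 0.126 without telencephalon 60 and 0.00862 with chromosomes X and Y. Nearly all of what telencephalon 59 had was found elsewhere, with 97.9% and 95.7% of its covered length in telencephalon 60 and 61 and 88.0% and 91.3% in brainstem 59 and 61.

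Most of the H3K27me3 length that remained lay in domains with a peak in every culture of both regions. Peaks were joined across libraries, with gaps of up to 1000 bp closed, into 8337 autosomal domains. Of these, 2034 (24.4%) had a peak in all 5 cultures, 126 (1.51%) were telencephalon-only, with a peak in 3 of 3 telencephalon and 0 of 2 brainstem cultures, and 474 (5.69%) were brainstem-only, with 2 of 2 and 0 of 3. Another 2964 (35.6%) were found in a single culture. By length, common domains made up 94.9%, 78.2% and 82.3% of the covered length of telencephalon 59, 60 and 61 and 80.7% and 76.9% of brainstem 59 and 61. Telencephalon-only domains made up 1.94% to 2.42% in the telencephalon cultures, and brainstem-only domains 3.96% and 3.76% in the brainstem cultures. A domain counts as common when each culture has any peak in it, so these lengths need not be shared base by base. The Jaccard index above measures the shared bases. These counts depend on single libraries: without telencephalon 59 there were 484 telencephalon-only domains, without brainstem 61 there were 244, and brainstem-only domains numbered 862 without telencephalon 60, 1554 without brainstem 59 and 1148 without brainstem 61.

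**Figure D1:**
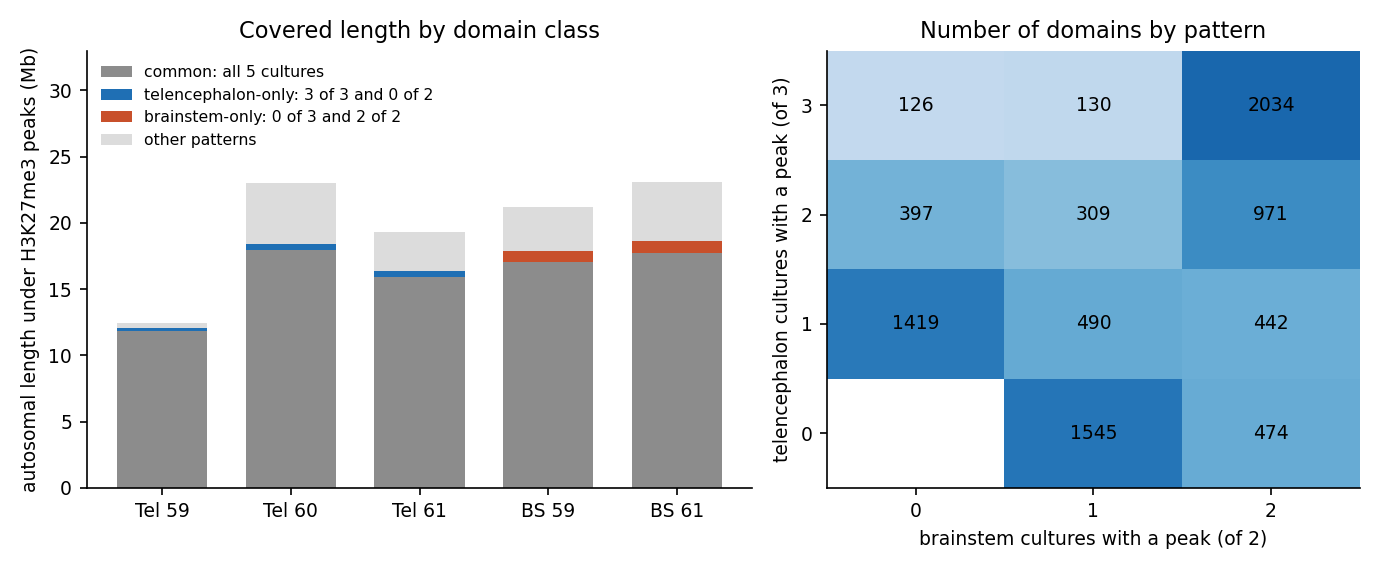
Left, autosomal length under H3K27me3 peaks in Mb for the telencephalon (Tel) and brainstem (BS) K27M cultures, stacked by domain class; right, number of domains by how many telencephalon (rows) and brainstem (columns) cultures had a peak, with darker blue for more. The grey common class fills most of every bar, from 76.9% to 94.9%, and 2034 domains lie in the corner with 3 and 2 cultures, against 126 with 3 and 0 and 474 with 0 and 2.

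Domains of the 3 classes differed in size and place. The median length was 6196 bp for common, 3442.5 bp for telencephalon-only and 1787.5 bp for brainstem-only domains, and the longest were 250395, 22893 and 38469 bp. A promoter, from 2000 bp upstream to 1000 bp downstream of a transcript start, lay in 68.9% of common, 30.2% of telencephalon-only and 23.2% of brainstem-only domains, and a promoter of a protein-coding gene in 62.7%, 14.3% and 16.5%. Common domains held a median of 2.07 CpG per 100 bp, against 1.04 and 0.978. Few regional domains were strong: the lowest fold over the carrying libraries was at least 5 in 3 of 126 telencephalon-only, 11 of 474 brainstem-only and 323 of 2034 common domains. Regional domains were thus mostly shorter and poorer in CpG than common ones, and fewer of them reached a fold of 5. The medians of the lowest fold were close, at 2.82 for common, 2.48 for telencephalon-only and 2.68 for brainstem-only domains. Length and fold are not separate from the classes, since a common domain had to pass the caller in all 5 cultures. The lowest fold is also taken over different libraries, and telencephalon 59 does not enter that of brainstem-only domains.

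At promoters, 39 of 51229 autosomal genes (0.0761%) were telencephalon-only, 16 of them protein-coding, 120 (0.234%) were brainstem-only, 73 of them protein-coding, and 1858 (3.63%) were common, 1301 of them protein-coding. The fold enrichment of a promoter is that of the strongest peak touching it, so neighbouring genes under 1 peak share a value. Its lowest value over the carrying cultures was at least 5 in 15 telencephalon-only and 7 brainstem-only genes, and was under 3 in 18 and 92. Without telencephalon 59 there were 168 telencephalon-only genes and without brainstem 61 there were 77, while brainstem-only genes numbered 301 without telencephalon 60, 342 without brainstem 59 and 228 without brainstem 61.

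The strongest telencephalon-only promoters included those of *Pax3*, a paired-box factor of the dorsal neural tube and neural crest, 4 of the 6 Iroquois homeobox genes, which pattern the neural tube and other tissues, and *Zic1* and *Zic4*, zinc-finger factors of dorsal neural cells. *Pax3* had the highest lowest fold of the coding genes in the class. Its promoter peak had a fold enrichment of 9.79, 23.0 and 25.2 in telencephalon 59, 60 and 61, and neither brainstem culture had a peak there. *Pax3* is the 1 of 44 listed hindbrain and spinal cord factors in this class, while 36 of the 44 were common.

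*Irx5* had fold enrichments of 7.58, 21.6 and 31.7 in the 3 telencephalon cultures and no peak in either brainstem culture. *Irx2* had 6.74, 19.0 and 27.4, again without a brainstem peak. *Irx3* had 6.27, 18.9 and 21.1 and *Irx1* 4.64, 10.8 and 18.9, and all 4 genes kept this class in 14 of 14 alternative settings. The remaining family members were common: *Irx4* had 7.63, 20.4 and 21.8 in the telencephalon and 11.1 and 12.7 in the brainstem, and *Irx6* 2.28, 4.55 and 4.90 against 2.55 and 3.03. The family lies in 2 clusters, *Irx1*, *Irx2* and *Irx4* on chromosome 13 and *Irx3*, *Irx5* and *Irx6* on chromosome 8, so each cluster held 2 telencephalon-only genes and 1 common gene. Measured after centring each library on its median over common domains, the promoter folds of both common members were higher in every telencephalon than in every brainstem culture.

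The longest telencephalon-only domains were those over *Irx2* (chr13:72618932-72641824), *Irx5* (chr8:92349132-92370742), *Skap2* (chr6:51992798-52013218) and *Irx1* (chr13:71955997-71972373). The *Irx2* domain covered 20043, 21768 and 22893 bp in telencephalon 59, 60 and 61, and the *Irx5* domain 18319, 21029 and 19491 bp. *Skap2*, which encodes an adaptor protein of leukocyte signalling and lies next to the *Hoxa* cluster, was covered over 16658, 14522 and 20421 bp, with folds of 7.79, 13.0 and 17.2. The next domains in this rank lay within *Ebf3*, a transcription factor gene of neuronal differentiation, 14821 bp from its start, at the non-coding gene *8430419K02Rik*, at *Zfp503* and in a stretch of chromosome 5 without a gene promoter.

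*Zic1* and *Zic4* share 1 peak between their promoters, with folds of 5.89, 9.09 and 20.5 in the telencephalon and no peak at either promoter in the brainstem. The domain around them was nonetheless common, covering 72389, 76199 and 79386 bp in the telencephalon and 36827 and 42660 bp in the brainstem, where its highest folds were 5.64 and 7.58. *Nr2f1*, the orphan nuclear receptor COUP-TFI that patterns cortical areas, had 5.02, 7.51 and 7.82. Unlike the others, *Nr2f1* carried no H3K27me3 peak at its promoter in any of the 5 control cultures. *Zfp503*, a zinc-finger repressor of striatal and limb development, had 3.32, 4.65 and 10.7. The weakest of the 12 named coding genes, *Ptprm* and *Tmod2*, had lowest folds of 2.54 and 2.37 and kept their class in 9 and 8 of 14 settings.

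Among coding genes of the brainstem-only class the strongest promoter was that of *Nr2e1*, the orphan nuclear receptor Tailless that maintains forebrain neural stem cells. Its folds were 24.7 and 30.9 in brainstem 59 and 61, and no telencephalon culture had a peak. The domain (chr10:42561030-42599498) covered 37631 and 37007 bp and reached the promoter of its neighbour *Ostm1*, which encodes a lysosomal membrane protein and has the same folds for that reason. It was also the longest of the class. *Insm1*, a zinc-finger factor of neuroendocrine and neuronal progenitors, came next among coding genes outside that domain with 8.18 and 8.02, and *Gbp5*, an interferon-induced GTPase, with 6.92 and 8.67. The other named genes were near the threshold or had 1 culture near it: *Sntb2*, a syntrophin, had 8.66 in brainstem 59 and 3.64 in brainstem 61, *Ppm1h*, a phosphatase, had 5.35 and 3.35, and *Klhl8*, *Gpr176*, *Rimklb*, *Inpp5a*, *Eif4b* and *Mal2* had lowest folds from 3.30 to 3.87. The *Sntb2*, *Ppm1h* and *Eif4b* promoters lay in domains that were common as a whole. The pseudogenes *Gm27178*, with 24.9 and 29.0, and *Gm13498*, with 14.1 and 18.6, also had stronger promoter peaks than *Insm1*. *Nr2e1*, *Ostm1*, *Insm1* and *Gbp5* kept their class in 14 of 14 settings.

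Away from promoters of coding genes, 5 of the next 7 brainstem-only domains, ranked by the smaller of their covered lengths in the brainstem cultures, touched no promoter. The second in this order (chr17:44388341-44409494) covered 19558 and 20206 bp at 151235 bp from *Clic5*, with folds of 5.69 and 5.81. Adjacent domains on chromosome 19, 278794 and 293444 bp from the corepressor gene *Tle4*, covered 11513 and 11839 bp and 10999 and 11206 bp. Others of this rank lay 293167 bp from *Adgrl2*, at *Gm47351* and within *Sorbs2*.

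A presence rule leaves out genes with a weak peak in the other region, and several forebrain factors were of this kind. *Emx2*, a homeobox factor of the dorsal telencephalon, had a peak of 5.57 in telencephalon 60 and none in the other two telencephalon cultures, against 26.1 and 33.8 in the brainstem. *Otx1*, a homeobox factor of forebrain and midbrain, had 2.02 and 3.30 in telencephalon 59 and 60 and none in 61, against 27.1 and 30.9. For both genes, every brainstem value was above every telencephalon value. Of 30 listed dorsal forebrain factors, 22 were common, 1 was brainstem-only (*Nr2e1*), none was telencephalon-only, 5 had other patterns (*Emx2*, *Otx1*, *Neurod6* and *Nfix* among them) and 2 had no peak (*Bcl11b* and *Hes5*). The list count of common genes stands against 3.63% of all autosomal genes and 6.25% of the protein-coding ones.

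**Figure D2:**
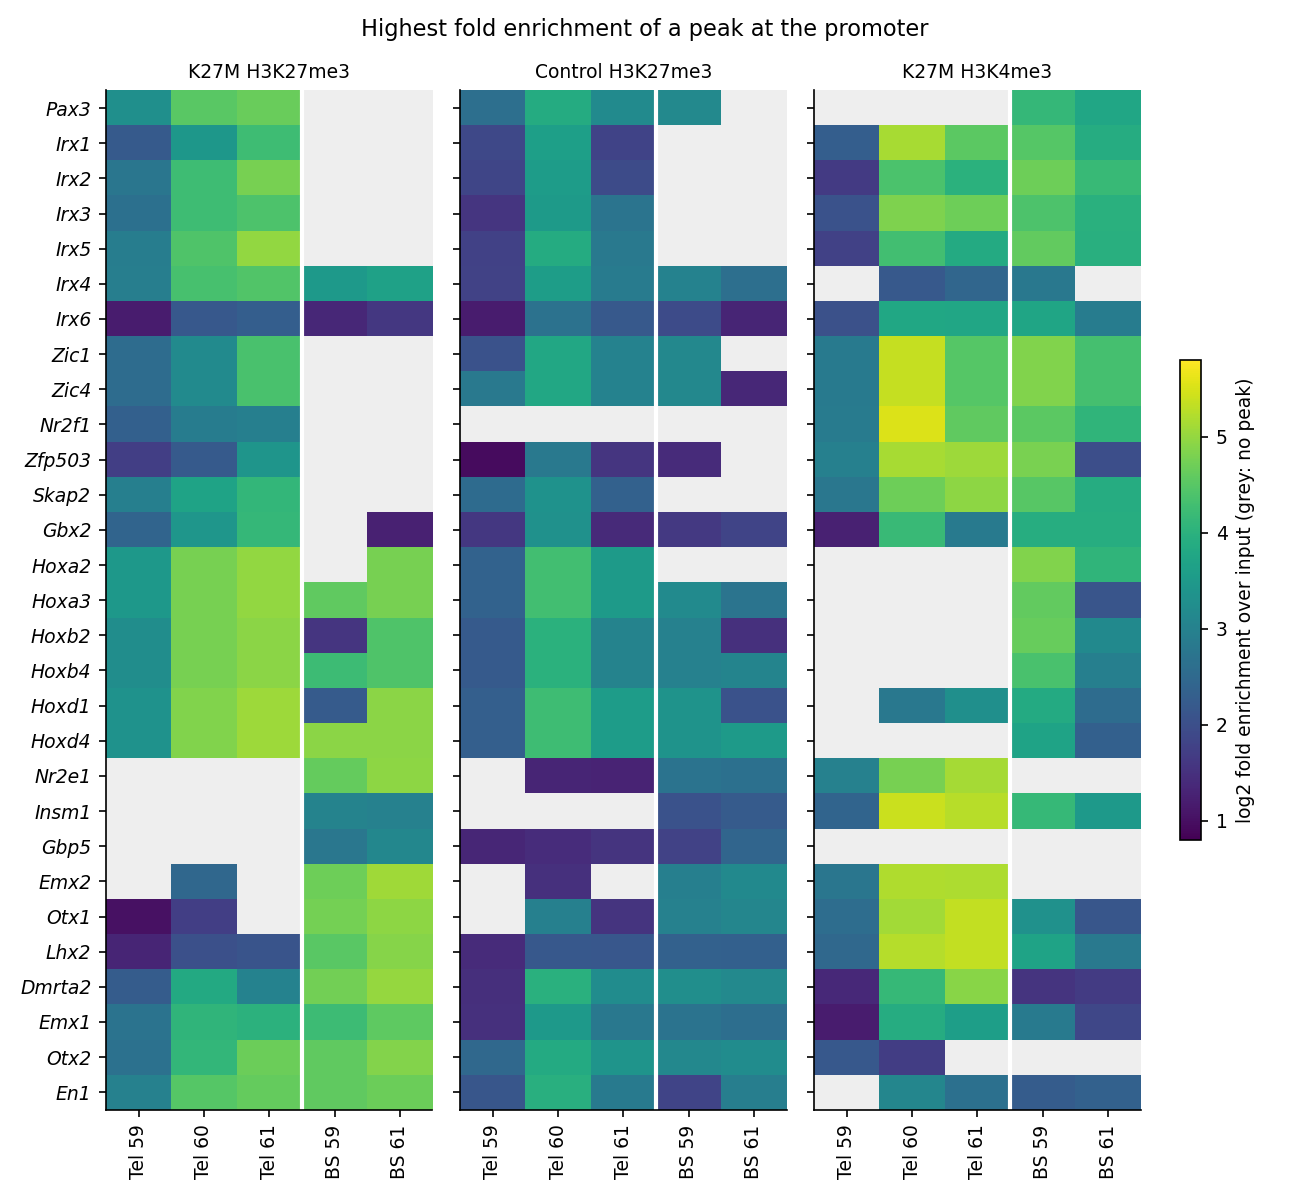
Log2 fold enrichment over input of the strongest peak at the promoter of named genes (rows) in telencephalon (Tel) and brainstem (BS) libraries (columns) for K27M H3K27me3, control H3K27me3 and K27M H3K4me3, with grey for no peak. In the left panel *Pax3*, *Irx1*, *Irx2*, *Irx3* and *Irx5* are grey in both brainstem columns and *Nr2e1* in the 3 telencephalon columns, and in the right panel *Hoxa3* and *Hoxb2* are grey in the telencephalon.

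The *Hox* genes, which encode position along the hindbrain and spinal cord, were nearly all common, with 37 of 39 marked in all 5 cultures. Among the exceptions was *Hoxa2*, which patterns the hindbrain and had folds of 11.0, 27.2 and 31.8 in the telencephalon, no peak in brainstem 59 and 27.3 in brainstem 61. The brainstem cultures thus differed from each other in where the mark ended. In brainstem 59 the promoters of *Hoxb1* (3.91), *Hoxb2* (2.98) and *Hoxd1* (4.68), and that of *Hoxa4* (2.39), also lay under weak peaks, against 21.3, 21.3, 30.6 and 27.3 in brainstem 61. The domain over the *Hoxa* cluster covered 169097, 180406 and 179074 bp in the telencephalon and 148034 and 170824 bp in the brainstem, where brainstem 61 falls inside the telencephalon range.

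The midbrain-hindbrain boundary genes were common in 13 of 14. *En1*, a homeobox factor of the midbrain-hindbrain boundary, had 7.97, 22.2 and 24.7 in the telencephalon and 23.8 and 25.6 in the brainstem, and its groups overlap. *Cnpy1*, which lies next to *En2* and modulates FGF signalling, had 3.33, 4.63 and 8.16 against 10.2 and 11.1. *Gbx2*, a homeobox factor of the anterior hindbrain, was the exception with 5.35, 10.8 and 17.6 in the telencephalon, no promoter peak in brainstem 59 and 2.40 in brainstem 61.

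**Figure D3:**
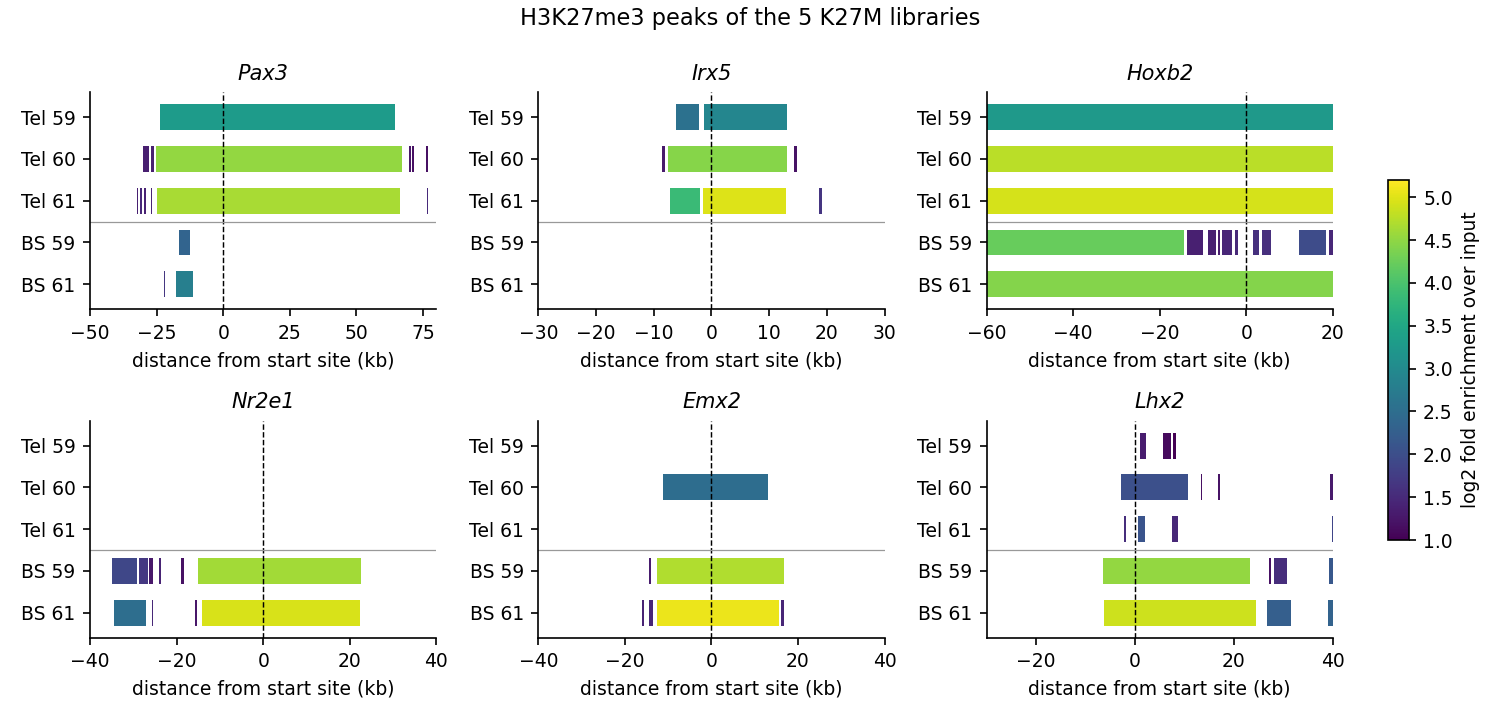
H3K27me3 peaks of the 5 K27M libraries around the start sites of 6 genes, drawn as bars by distance from the start site in kb in the direction of transcription, and coloured by log2 fold enrichment over input; Tel is telencephalon and BS brainstem. At *Pax3* the telencephalon bars run on over most of the window while the brainstem bars are short and away from the start site, *Irx5* has bars in the telencephalon only, and *Nr2e1* has them in the brainstem only.

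The common domains allowed a test, since each had a fold in every culture. The highest fold per domain was put on a log2 scale, each library was centred on its median, and limma was fitted over all 2034 domains with Benjamini-Hochberg adjustment. Of these, 25 (1.23%) were higher in the telencephalon and 16 (0.787%) higher in the brainstem at an adjusted p under 0.05, and 193 had an unadjusted p under 0.05. Limma pools the spread between cultures over all domains (prior degrees of freedom 24.76). A small limma p-value thus rests mostly on that pooled spread and not on the spread of its own domain. Without centring there were 0 and 2 calls, with 48 domains at an unadjusted p under 0.05. All calls toward the telencephalon, and all but 2 of those toward the brainstem, thus rest on the centring. The median absolute log2 difference was 0.22, and 98.1% of domains differed by less than 1 log2 unit. Folds of telencephalon 59 spread less across the domains (SD of log2 0.60) than those of the other libraries (0.90 to 0.93), and quantile normalization, which gives all libraries 1 distribution, left 5 and 4 calls. Without telencephalon 59 there were 77 and 61 calls among 2955 domains. Leaving out others gave 12 in the telencephalon direction without telencephalon 61, 8 and 7 without brainstem 59, and 9 and 6 without brainstem 61.

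*Lhx2*, a LIM homeobox factor that specifies cortex, and *Otx1* had the smallest p-values. The *Lhx2* domain had highest folds of 2.49, 4.05 and 4.28 in telencephalon 59, 60 and 61 and 22.8 and 29.6 in brainstem 59 and 61. It was covered over 3421, 14393 and 3191 bp against 29889 and 30835 bp. All brainstem values were above all telencephalon values, and the centred log2 difference was −2.57 (SE 0.25, limma adjusted p = 8.21e-08), or 5.92-fold. The *Otx1* domain had 2.31, 5.93 and 3.70 against 27.1 and 30.9, a log2 difference of −2.65 (SE 0.26, limma adjusted p = 8.21e-08). Both were called in 9 of 9 settings of the fit, and with quantile normalization at adjusted p of 0.0012 and 0.0053.

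The domain over *Pax3* (chr1:78129972-78229562) had a remnant in the brainstem although the promoter there had no peak. Its covered length was 88242, 96122 and 93158 bp in the telencephalon and 3998 and 6731 bp in the brainstem. Highest folds were 9.79, 23.0 and 25.2 against 5.05 and 6.98, a log2 difference of 1.91 (SE 0.25, limma adjusted p = 1.75e-05). The *Gbx2* domain had 27189, 31106 and 31717 bp against 5466 and 3737 bp, and a log2 difference of 1.97 (SE 0.26, limma adjusted p = 1.88e-05). Neither gene's groups overlap, and both were called in 8 of 9 settings, with quantile adjusted p of 0.0039 and 0.013.

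The other named domains higher in the telencephalon were those at the non-coding gene *4930432O09Rik* (log2 difference 1.57), 173245 bp from *Nr2f2* (1.77), at *Maml3*, a coactivator of Notch signalling (a 2.83-fold difference), 307399 bp from *Cypt12* (2.82-fold), 69274 bp from *Tnfsf11* (1.29) and at *Nr6a1*, the germ cell nuclear factor (1.29). Those higher in the brainstem were a domain 5188 bp from *Klhl8* (−1.89), *Nptx2*, a neuronal pentraxin (−1.49), *Dmrta2*, a DM-domain factor of cortical patterning (−1.52), *Pou2af1*, a lymphocyte coactivator (−1.44), a domain 569736 bp from *Itga1* (−1.36) and *Egr3*, an immediate early factor (−1.31). Limma adjusted p-values of these 12 lay between 0.00018 and 0.0026. They were called in 6 to 8 of 9 settings, and of the 12 only *4930432O09Rik*, the *Tnfsf11* domain, *Nr6a1* and *Nptx2* were called with quantile normalization.

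**Figure D4:**
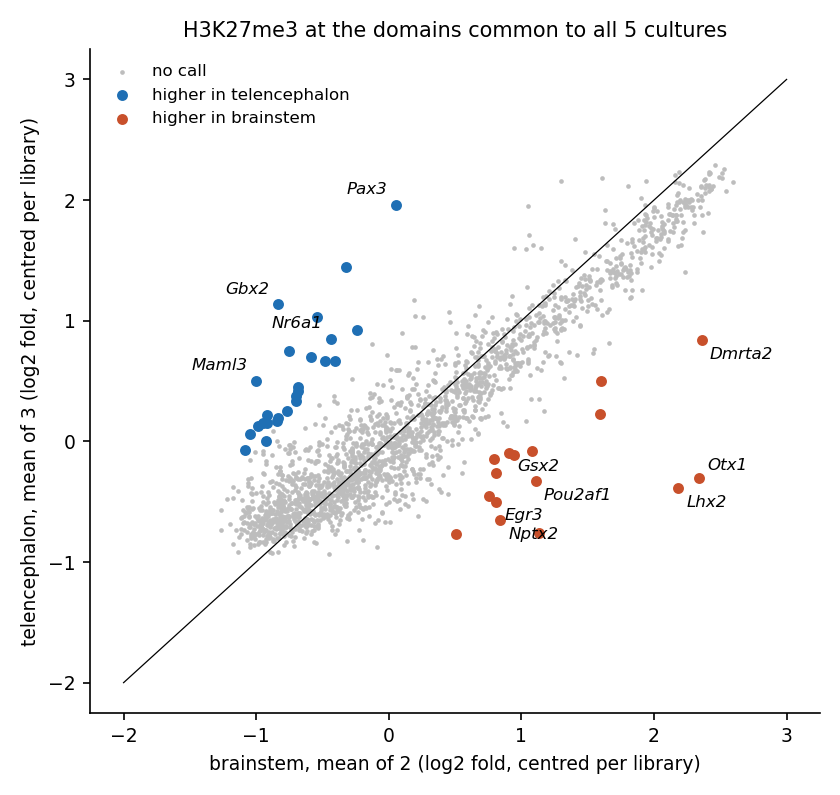
Mean centred log2 fold enrichment of the 2034 common domains in the telencephalon (vertical, 3 cultures) against the brainstem (horizontal, 2 cultures), with the line of equality and limma calls in colour. Most points lie along the line, the 25 blue points are above it with *Pax3* and *Gbx2* farthest out, and the 16 red points are below it with *Lhx2* and *Otx1* farthest out.

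Covered length gave a second reading of the common domains, from the same peaks. Of 2034 domains, 124 (6.1%) were longer in every telencephalon than in every brainstem culture and 492 (24.2%) the other way round, with telencephalon 59 having the shortest total. At a difference of at least 2-fold between the nearest cultures, the counts were 20 (0.983%) and 26 (1.28%). The longer-in-telencephalon domains included *Pax3*, *Gbx2*, *Wnt8b*, a Wnt ligand of the cortical hem (15527, 24555 and 25877 bp against 4796 and 4467 bp), and *Epha7*, an ephrin receptor (4054, 11593 and 6964 bp against 1127 and 795 bp). The highest fold at *Wnt8b* was 5.37, 7.27 and 10.8 against 5.82 and 5.51, which overlap, while the centred log2 values of 0.91, 0.36 and 0.87 against 0.14 and −0.17 do not. In the other direction, a domain 16756 bp from *Dbx1*, a factor of ventral interneurons, covered 9625, 23289 and 15091 bp against 58274 and 52387 bp, and *Pou2af1* 9364, 22645 and 10325 bp against 47205 and 49896 bp. *Sntb2* had 7553, 7430 and 15963 bp against 72647 and 35305 bp. A domain 5621 bp from the imprinted gene *Magel2* had 8807, 9599 and 7656 bp against 25319 and 23057 bp.

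Listed forebrain factors that were common tended to carry higher centred folds in the brainstem. Over all 1858 common genes, the centred promoter fold did not overlap between the groups in 175 (9.42%) with the telencephalon higher and in 416 (22.4%) with the brainstem higher, and the median log2 difference was −0.13. Of the 22 common dorsal forebrain factors, 13 (59.1%) were higher in every brainstem culture and 1, the proneural gene *Neurog1*, in every telencephalon culture, with a median of −0.47. Without telencephalon 59 these were again 13 and 1, with a median of −0.34, against 491 (26.4%) and 425 (22.9%) of all common genes. *Dmrta2* had 4.77, 14.4 and 8.07 against 26.7 and 32.3, and *Emx1*, a homeobox factor of the cortex, 6.53, 16.9 and 16.1 against 18.6 and 23.6. *Fezf2*, a factor of deep-layer cortical neurons, had 7.99, 18.8 and 18.6 against 24.6 and 27.4. Ventral forebrain factors had 7 of 13 (53.8%) higher in the brainstem and 1, *Ebf1* (centred log2 difference 1.14), in the telencephalon. Without telencephalon 59 these were 7 and 2. Among the 7 were *Dlx1* and *Dlx2*, which share a peak of 6.54, 22.7 and 24.0 against 26.4 and 33.1 and are not separate readings.

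*Hox* genes had none of 37 on either side and a median of 0.05. Without telencephalon 59, 28 of 37 (75.7%) were higher in every remaining telencephalon culture, with a median of 0.18, and none in the brainstem, so this reading rests on that library. Most *Hox* genes of a cluster lie under 1 peak and share its fold, so the 37 genes are not 37 separate readings. Their share is therefore not comparable with that of all common genes. Without centring the sign of the *Hox* median turns to −0.27, as all common domains then shift by −0.32, or by 0.02 without telencephalon 59. Removing the centring shifts every list median by the same −0.32, so medians already below 0 had to stay below 0. The forebrain, hindbrain and T-box medians were of this kind, so their sign without centring is no test of direction. Hindbrain and spinal cord factors had 11 of 36 (30.6%) higher in the brainstem and 1 (2.78%) in the telencephalon, or 11 and 6 (16.7%) without telencephalon 59. T-box, heart and limb factors had 10 (35.7%) and 1 (3.57%) of 28 with or without it. Over all common genes these shares were 22.4% and 9.42%, or 26.4% and 22.9% without telencephalon 59. The hindbrain share toward the brainstem was then near that of all common genes. Leaving out telencephalon 59 moved the centred median from −0.25 to −0.068 for the hindbrain list, from −0.25 to −0.098 for the T-box list and from −0.29 to −0.14 for the ventral forebrain list, and from −0.13 to −0.027 for all common genes.

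The core common to both regions held regulators of other lineages and of other positions along the body axis. Its longest domains lay over the *Hoxc* cluster (chr15:102882666-103133060), which was covered over 206470, 233912 and 228725 bp in the telencephalon and 240350 and 240826 bp in the brainstem, over *Hoxa*, *Hoxb* and *Hoxd*, over *Neurog2* and *Alpk1*, and over *Zdbf2*, *Prdm16* and *Hand2*. *Hand2*, a factor of heart and limb, had folds of 11.7, 27.7 and 32.6 against 29.5 and 37.0, which overlap, while the centred log2 values of 2.03, 2.29 and 2.46 against 2.48 and 2.57 do not. T-box, heart and limb factors were common in 28 of 29, ventral forebrain factors in 13 of 15, and Wnt, BMP, Hedgehog and FGF ligands in 31 of 41. Of 7 cyclin-dependent kinase inhibitors, *Cdkn1c* and *Cdkn2a* were common and the other 5 had no peak. *Cdkn2a*, which encodes the tumor suppressors p16INK4a and p19ARF, had 7.90, 15.7 and 18.5 in the telencephalon and 18.8 and 22.2 in the brainstem. Of 19 autosomal genes for Polycomb proteins, 15 had no peak, and *Cbx2* and *Cbx8* were among the common ones.

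Control cultures, which did not enter the choice of domains, were read at the same places. At telencephalon-only domains a control H3K27me3 peak was present in 92.9%, 99.2% and 96.8% of domains in the telencephalon controls and 83.3% and 59.5% in the brainstem controls. The difference of 24.9 percentage points (96.3 ± 3.21% against 71.4 ± 16.8%, SD, n = 3 and 2) had an exact permutation p of 0.2, the smallest possible. At brainstem-only domains the shares were 26.8%, 72.8% and 71.7% against 79.7% and 92.4%, a difference of −29.0 points (57.1 ± 26.3% against 86.1 ± 8.95%, exact permutation p = 0.2). With the domains unchanged, leaving out the control library of brainstem 61 lowered the first difference to 13.0 points. Leaving out the control library of telencephalon 59 made the second −13.8 points. In both comparisons the groups do not overlap, and over all 8337 domains the shares were 55.3%, 87.1% and 87.9% against 86.7% and 79.4%. Common domains had a control peak in all 5 controls in 1956 of 2034 (96.2%).

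A regional pattern of the same kind was present in the controls at a minority of regional domains. Of 126 telencephalon-only domains, 14 (11.1%) had a control peak in every telencephalon and no brainstem control, 62 had one in all 5 controls, and none had the opposite pattern. Of 474 brainstem-only domains, 35 (7.38%) had control peaks in both brainstem controls alone, 108 in all 5 and 5 in none. Over all 8337 domains these patterns were found in 67 (0.804%) and 100 (1.2%), and in 0 of the 2034 common domains. Read at promoters and not over whole domains, *Irx1*, *Irx2*, *Irx3* and *Irx5* had peaks in 3 of 3 telencephalon and 0 of 2 brainstem controls. Over the whole domains, control brainstem 59 covered 1943 bp at *Irx1* and 1112 bp at *Irx5*, so those domains lacked the pattern. The *Insm1* promoter had peaks in both brainstem controls and no telencephalon control. Its domain was covered over 1247 and 1069 bp in telencephalon controls 60 and 61. *Pax3* differed, with control folds of 6.20, 14.7 and 9.15 in the telencephalon, 8.93 in brainstem 59 and no peak in brainstem 61. At *Nr2e1* the control domain covered 0, 5213 and 2541 bp in the telencephalon and 34727 and 33026 bp in the brainstem.

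H3K4me3 in the K27M cultures was measured in other libraries and bears on whether a promoter without H3K27me3 carried the active mark. At telencephalon-only genes, 68.4 ± 10.4% (SD, n = 3) had H3K4me3 in the telencephalon and 75.6 ± 5.44% (SD, n = 2) in the brainstem, with an exact permutation p of 0.6. At brainstem-only genes the shares were 65.0 ± 1.44% and 62.5 ± 2.36% (exact permutation p = 0.4). For comparison, 33.9 ± 1.60% and 33.5 ± 1.69% of all autosomal genes had it. Among the coding genes of the brainstem-only class the share was 82.2% in each of the 3 telencephalon cultures and 80.8% and 78.1% in the brainstem, groups that do not overlap (exact permutation p = 0.2, the smallest possible). That separation rests on few genes, with 60 of 73 in each telencephalon culture against 59 and 57. Among coding genes of the telencephalon-only class the means were 91.7% in the telencephalon and 93.75% in the brainstem. Single H3K4me3 libraries were also left out, with the genes unchanged. The difference at telencephalon-only genes was then −1.28 points without telencephalon 59 and −3.42 without brainstem 59. At brainstem-only genes it was 0.833 points without brainstem 61 and 4.17 without brainstem 59.

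Single genes separated sharply. Over all 51229 autosomal genes, 50 (0.0976%) had H3K4me3 in every telencephalon and no brainstem culture and 44 (0.0859%) the reverse. Of the 39 telencephalon-only H3K27me3 genes, *Pax3* was the 1 with the reverse pattern, with no H3K4me3 in the telencephalon and folds of 17.6 and 13.5 in the brainstem. Of the 120 brainstem-only genes, *Nr2e1* was the 1 with H3K4me3 in the telencephalon alone, at 8.00, 27.4 and 35.1. *Emx2* had H3K4me3 of 6.82, 37.0 and 36.3 in the telencephalon and no brainstem peak. The *Irx* genes were not of this kind, since *Irx1*, *Irx2*, *Irx3* and *Irx5* had H3K4me3 in all 5 cultures, as at *Irx5* with 3.38, 19.4 and 14.6 in the telencephalon and 24.4 and 15.5 in the brainstem. Both marks were therefore called at these 4 promoters in the telencephalon cultures, and H3K4me3 without H3K27me3 in the brainstem cultures.

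*Hox* promoters differed by H3K4me3 although H3K27me3 was common. H3K4me3 was found at 2, 5 and 6 of 39 *Hox* promoters in telencephalon 59, 60 and 61 and at 22 and 19 in brainstem 59 and 61. In 14 of 39 it was present in both brainstem and no telencephalon culture, against the 0.0859% of all genes: *Hoxa2*, *Hoxa3*, *Hoxa6*, *Hoxb2* to *Hoxb8*, *Hoxc4*, *Hoxc5*, *Hoxd3* and *Hoxd4*. *Hoxa3* had H3K4me3 folds of 24.1 and 4.35 in the brainstem, with H3K27me3 there of 24.1 and 27.3. *Hoxb2* had H3K4me3 of 24.9 and 9.04, with H3K27me3 of 2.98 and 21.3. Of 30 dorsal forebrain factors, H3K4me3 marked 17, 25 and 25 in the telencephalon and 16 and 13 in the brainstem, and 5 (*Emx2*, *Fezf2*, *Nr2e1* and *Six3* among them) in every telencephalon and no brainstem culture. Overlap of both marks in a bulk culture does not show that they lie on the same allele or in the same cell.

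**Figure D5:**
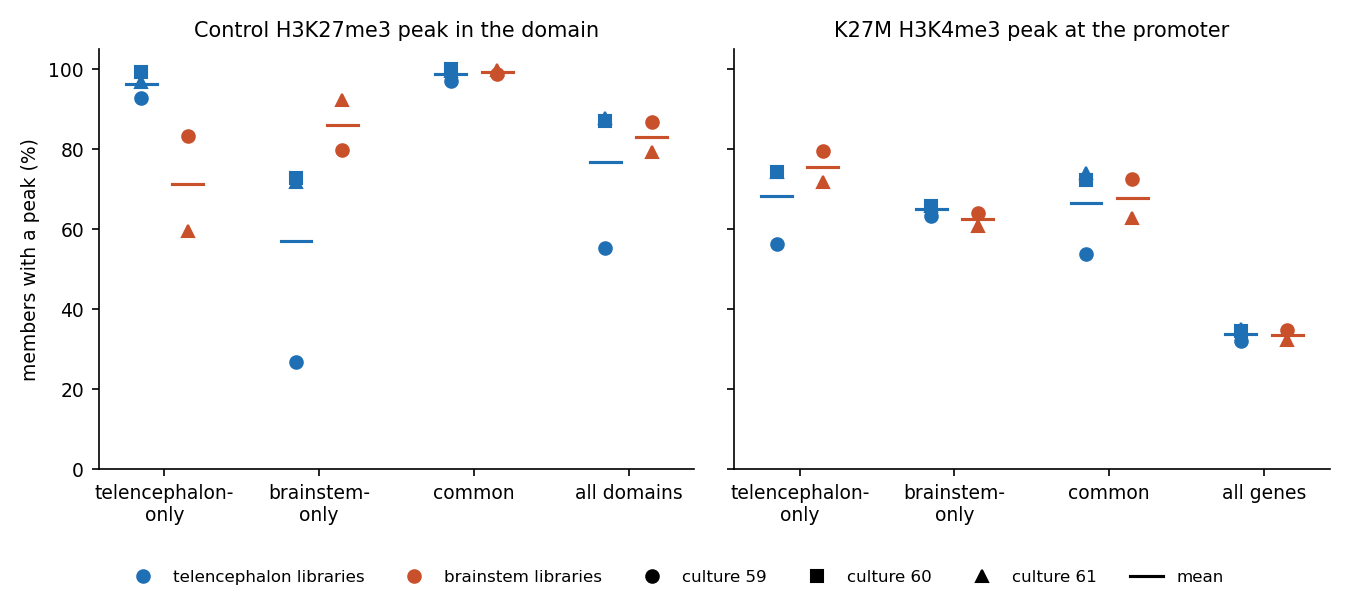
Share of regional, common and all domains with a control H3K27me3 peak (left) and of genes with a K27M H3K4me3 promoter peak (right), with 1 point per library, shaped by culture number and coloured by region, and lines at the means. Control shares at telencephalon-only domains lie at 92.9% or more in the telencephalon and at 83.3% or less in the brainstem, while the H3K4me3 means at regional genes differ by 7.26 points or less between regions.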

How the data were processed

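H3K27me3 ChIP-seq peak lists of 5 K27M cultures were compared. The control H3K27me3 and K27M H3K4me3 lists of the same culture numbers served as readouts that did not enter the choice of members. They are other libraries but not independent replicates. Input libraries were not analysed here. Reads had been aligned by the authors with BWA (0.7.17-r1188) to mm10 and filtered for blacklisted regions. Their MACS2 (2.2.7.1) calls set each library against the matching input, in broad mode with a cutoff of 0.1 for H3K27me3. No replicates were pooled and the spike-in was not used for calling. Trim Galore (0.6.7), cutadapt (3.4) and deepTools (3.5.4) are further tools of the submitters' processing notes. Each deposited peak has a ratio (its fold enrichment over the input), a p-value and a q-value as −log10, and a score, which was not used.

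Peaks were merged per library, autosomes kept, and joined over gaps of up to 1000 bp. Transcript starts were those of GENCODE M21, on GRCm38 (mm10), and 0 peaks passed a chromosome end. Covered lengths, Jaccard indices and shares were compared by exact permutation over the 10 splits of 3 against 2 cultures, computed with scipy 1.17.1 and numpy 2.4.6 under Python 3.11.15. Common domains were tested with limma 3.58.1 in R 4.3.3. The interval functions and the fit were tested on simulated data. Named genes were the listed genes of the regional classes and every *Irx*, dorsal forebrain and midbrain-hindbrain gene, of which the informative ones are described, the 12 coding genes of each regional class with the highest lowest fold, the 8 longest domains of each class and the 8 common domains of smallest p in each direction. Other genes (*Hox*, *Nkx2-2*, *Cdkn2a*, *Hand2*, *Wnt8b* and those named for their covered length or H3K4me3) were named after their values were seen. All 295 listed symbols were matched. Members and lists were chosen with earlier results of these data known. Alternatives were stricter peaks, equal numbers of peaks, other gaps, overlaps and windows, chromosomes X and Y, protein-coding genes, the MSPC consensus of the study's methods, other scalings, culture number as a block and each culture left out.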

Additional observations from a re-analysis of the deposited data

How the results depend on the processing

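Counts of regional domains and genes depended on the threshold and on single libraries more than those of common ones. Telencephalon-only domains (126) numbered 58 with −log10 q of at least 3, 26 with a fold of at least 3 and 644 with the MSPC consensus, and 140 to 484 with a culture left out. Brainstem-only domains (474) numbered 270, 305 and, with equal numbers of peaks, 244, and 479 to 1554 with a culture left out. Common domains numbered 888 and common genes 1051 with a fold of at least 3. Telencephalon-only genes (39) numbered 62 with equal numbers of peaks, 16 among protein-coding genes, 323 with MSPC and 43 to 168 with a culture left out, and brainstem-only genes (120) 73 among protein-coding genes, 300 with MSPC and 122 to 342. Domains at least 2-fold longer, whose alternatives were chosen after seeing the data, numbered 13 and 12 with the stricter q in the telencephalon and brainstem directions, and 21 to 76 and 41 to 115 with a culture left out, against 20 and 26. Limma calls were 0 and 2 without centring, where 48 domains had an unadjusted p under 0.05, and 5 and 4 with quantile normalization, and 8 to 77 and 6 to 61 with a culture left out. The consensus and left-out settings ask for fewer cultures with a peak, and the stricter settings keep fewer peaks. The cause was not tested for the rest.

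Regions share culture numbers 59 and 61, which gives 2 pairs. Within each region, the deviations of cultures 59 and 61 from the mean of these 2 were taken, with telencephalon 60 left out. Between same-numbered cultures they correlated with r = −0.12 across 2034 common domains, which are not independent. This is a single contrast per region and cannot show whether the cultures were paired. The labels do not say whether 1 litter gave both regions, so the main results treat the cultures as unpaired. With the replicate block, which leaves out telencephalon 60, there were 862 brainstem-only domains and 301 brainstem-only genes, and limma with the block called 27 and 15. The block moved the covered length difference to −0.51 with a sign-flip p of 0.5, the smallest 2 pairs allow. The covered length difference, the Jaccard difference and the control and H3K4me3 shares kept their direction in every alternative run. The lists hold no counts, so H3K27me3 below the caller's threshold and the depth behind a peak limit every statement about absence.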

Other observations

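Chromosome X was left out of the comparisons. H3K27me3 peaks covered 0.823, 18.4 and 2.08 Mb of it in K27M telencephalon 59, 60 and 61, and 1.27 and 6.76 Mb in K27M brainstem 59 and 61. In the controls the lengths were 0.295, 24.7 and 46.1 Mb and 1.02 and 0.491 Mb. Cultures of 1 region thus differed among themselves by far more on this chromosome than on the autosomes, where the K27M libraries ranged from 12.5 to 23.1 Mb.

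Highest folds at common domains correlated across the 2034 domains with r = 0.960 between the brainstem cultures and r = 0.951 between telencephalon 60 and 61, with r = 0.890 to 0.911 between these and the brainstem cultures, and with r = 0.785 to 0.834 for telencephalon 59 against any other. These are descriptions across domains that share the caller and the genome.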
